A study of Mus musculus with 90 samples.

Results

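The comparison set the 6 ovary libraries against the 6 uterus libraries of a series that profiled 15 mouse tissues by RNA-seq in 90 libraries. Members were chosen by the tissue label alone, ovary or womb, and the womb is called the uterus here. Each tissue contributed 3 libraries taken in estrus and 3 taken in diestrus, the receptive and the luteal phase of the estrous cycle, which were told apart by vaginal smears. All mice were untreated wildtype C57BL/6 females, 10 weeks old according to the sample labels although the study's methods give a younger age, with no transgene and no agent given in any group. The study took its tissues from 3 mice of each phase, but no source used here says whether libraries that share a number share a mouse, so p-values measure the spread between these libraries. RNA came from bulk tissue, so a lower value can mean fewer cells of a type or less RNA per cell, and these cannot be told apart.

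The ovary makes the oocytes and the sex steroids. Within a follicle, theca cells answer luteinising hormone and convert cholesterol to androgen, granulosa cells answer follicle-stimulating hormone and convert that androgen to estradiol, and after ovulation the remaining follicle wall becomes a corpus luteum that makes progesterone. The uterus receives those steroids. Its simple luminal and glandular epithelium lies on a hormone-responsive stroma inside a wall of smooth muscle, and in rodents estrogen drives that epithelium to proliferate and secrete. Both organs lie next to the oviduct, which joins them.

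Expression values of 20414 genes were taken to be FPKM, a fragment count corrected for transcript length and for library size, although no source used here names their unit. The defining markers of each organ were checked first, as the summed FPKM of a marker list in each library. The 24 oocyte genes summed to 287.4 to 603.1 FPKM in ovary and 7.64 to 21.4 in uterus, and the 14 granulosa genes to 2595 to 4768 and 66.2 to 118.7. The 18 genes of simple epithelium summed to 1891 to 4808 FPKM in uterus and to 47.4 to 74.8 in 5 of the ovary libraries. The other ovary library, estrus replicate 3, stood apart with 654.7 FPKM of these epithelial genes and with 1967 FPKM of oviduct genes, against 40.5 to 94.0 in the other 5. Uterus estrus replicate 3 stood apart likewise, with 3705 FPKM of oviduct genes against 113.0 to 273.4, and with 2306 FPKM of squamous epithelial genes against 10.8 to 77.9. Calls are therefore given with and without estrus replicate 3 of both tissues where that changes them. Uterus estrus replicate 2 also departed from the other estrus libraries, with 1805 FPKM of estrogen-induced secretory genes against 16820 and 8771, a value inside the diestrus range of 299.6 to 2745. Across genes, Pearson's r of log2(FPKM + 1) was 0.924 to 0.990 between ovary libraries, 0.758 to 0.983 between uterus libraries and 0.621 to 0.832 between an ovary and a uterus library. These correlations run across genes, which do not replicate each other, and serve as a description.

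**Figure D1:**
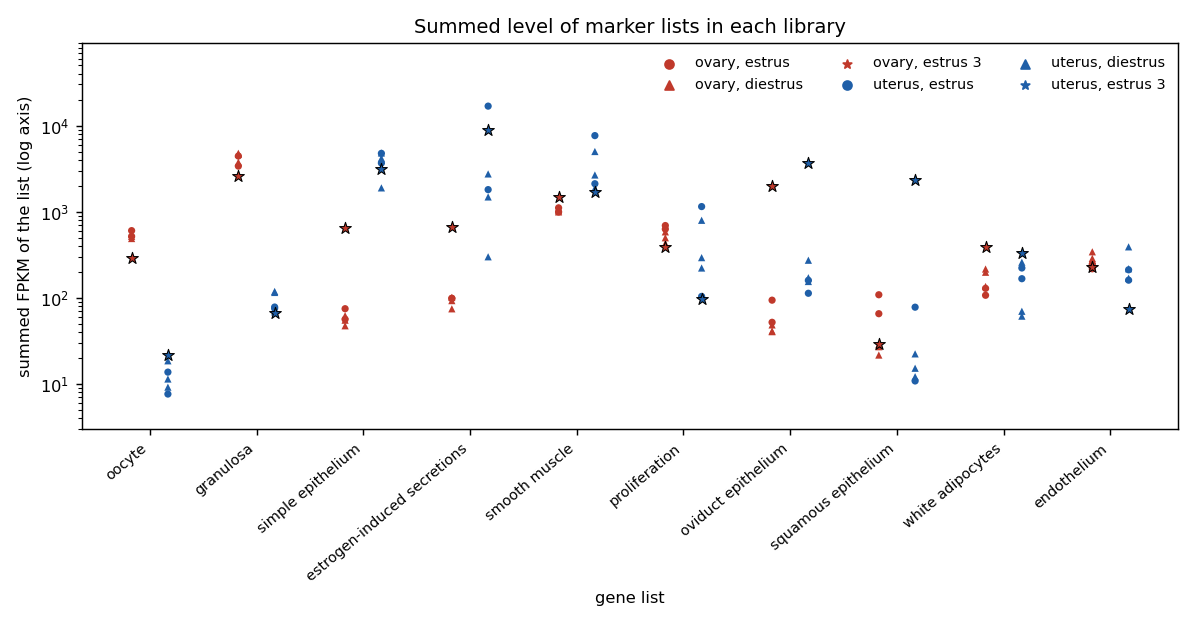
Summed FPKM of 10 marker lists (log axis) in each of the 6 ovary and 6 uterus libraries, with circles for estrus, triangles for diestrus and outlined stars for estrus replicate 3. The star of ovary lies at 1967 FPKM and that of uterus at 3705 FPKM on the oviduct list, above the other libraries of both tissues, while the oocyte and granulosa lists separate the tissues in every library.

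The difference between the organs was tested for the 14035 genes whose FPKM averaged 1 or more across the 12 libraries, on log2(FPKM + 1) with phase as a covariate. Differences are ovary minus uterus on that scale, and for genes of low level they come out smaller than the true fold. A gene was called at an adjusted p of at most 0.05 (limma, Benjamini-Hochberg over all genes tested) and a difference of at least 1. By these limits 1458 genes were higher in ovary, 10.4% of those tested, and 1215 were higher in uterus, 8.66%. Counts of called members of a gene list are to be read beside these shares. The 6 ovary libraries all lay above the 6 uterus libraries for 15.8% of tested genes, and the reverse held for 6.9%. The median difference over all tested genes was 0.15, and it was -0.01 after median-of-ratios scaling, under which 1180 genes were called higher in ovary and 1410 in uterus. Without estrus replicate 3 of both tissues, 1357 of the ovary calls and 1163 of the uterus calls were made again. The uterus calls had the larger errors, with a median standard error of 0.33 against 0.22 for the ovary calls.

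Large differences were common in both directions. A difference of 3 or more was found for 207 genes in favour of ovary and 229 in favour of uterus. Ovary had the highest mean of all 15 tissues for 600 of its called genes, 41.2%, against 14.9% of all tested genes. Uterus had the highest mean for 364 of its called genes, 29.96%, against 10.3% of all tested genes. These shares describe the lists and were not tested, since a gene called higher in a tissue is already above one other tissue.

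**Figure D2:**
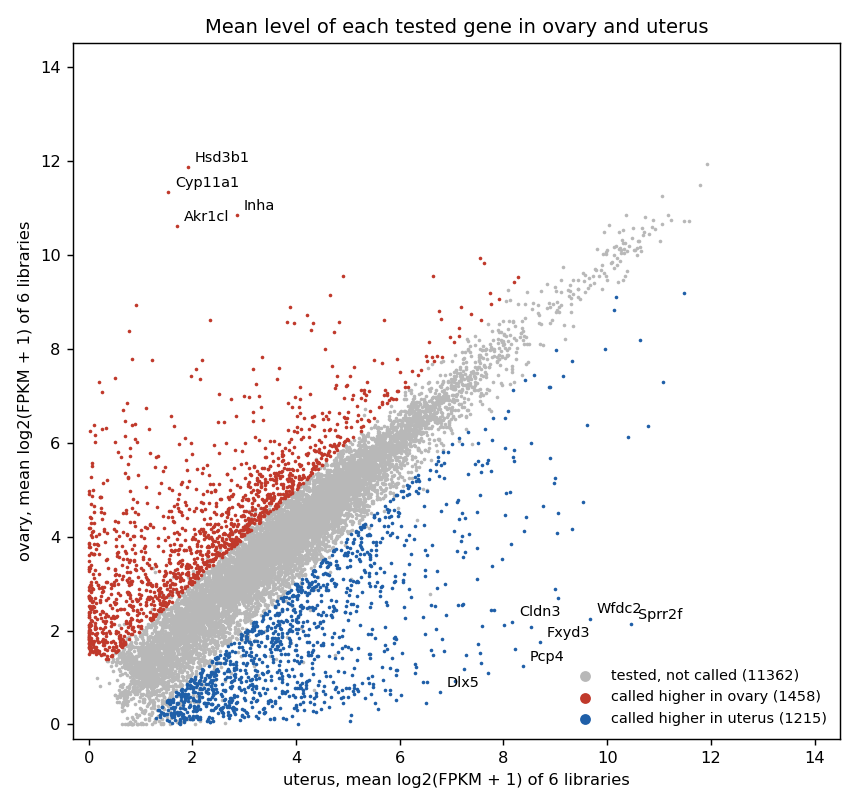
Mean log2(FPKM + 1) of each tested gene in the 6 uterus libraries (x axis) and the 6 ovary libraries (y axis), with the 1458 genes called higher in ovary in red, the 1215 called higher in uterus in blue and the rest in grey. Hsd3b1, Cyp11a1, Akr1cl and Inha lie far above the diagonal, and Sprr2f, Wfdc2 and Pcp4 far below it.

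The genes furthest towards ovary were led by enzymes of steroid hormone production. Hsd3b1 (Entrez Gene 15492), which turns pregnenolone into progesterone, ranged from 2796 to 4745 FPKM in ovary with a median of 3765, and from 0.15 to 15.6 in uterus with a median of 2.49. The difference was 9.95 (SE 0.45, adjusted p = 1.15e-08). Cyp11a1 (Entrez Gene 13070), the mitochondrial enzyme that cleaves the side chain of cholesterol and so commits it to steroid synthesis, ranged from 1881 to 3647 FPKM with a median of 2485 in ovary and from 0.60 to 2.69 with a median of 2.10 in uterus. Its difference was 9.81 (SE 0.22, adjusted p = 1.80e-10). For both genes every ovary library lay above every uterus library, which the choice of leading genes required. The aldo-keto reductase Akr1cl had 1208 to 1913 FPKM in ovary and 0.34 to 4.01 in uterus, a difference of 8.91 (SE 0.28). The 15 leading genes also held Mgarp (8.03, SE 0.38), a mitochondrial protein, the acyl-CoA synthetase Acsbg1 (7.60, SE 0.26), the epoxide hydrolase Ephx2 (6.27), the cystatin Cst8 (6.23), Prss35 (6.55) and Cnmd (6.27). All 15 had their highest mean in ovary among the 15 tissues.

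The steroid genes can be followed along the pathway. Lhcgr, the receptor of luteinising hormone, had 79.5 to 270.6 FPKM in ovary with a median of 182.2 and 0.05 to 0.26 in uterus, a difference of 7.09 (SE 0.31, adjusted p = 9.56e-09). Fshr, the receptor of follicle-stimulating hormone, was lower in level, at 8.07 to 31.1 FPKM in ovary and 0 to 0.05 in uterus, with a difference of 4.17 (SE 0.27, adjusted p = 2.33e-07). Star, the carrier that brings cholesterol into the mitochondrion, had a median of 163.5 FPKM in ovary (123.8 to 257.0) and 2.71 in uterus (2.52 to 4.4). The electron donors of Cyp11a1 were called as well, ferredoxin Fdx1 at a difference of 4.76 (SE 0.16) and its reductase Fdxr at 4.49 (SE 0.21). Beyond progesterone, Cyp17a1, which makes androgen in theca cells, ranged widely within ovary, from 2.39 FPKM in estrus replicate 1 to 230.8 in diestrus replicate 1 with a median of 101.5, against 0.03 to 0.20 in uterus. Its difference was 6.06 with an SE of 0.76. Cyp19a1, the aromatase that makes estrogen, had 5.93 to 36.2 FPKM in ovary and 0 to 0.11 in uterus, and Hsd17b1, which reduces estrone to estradiol in granulosa cells, had 120.3 to 287.3 and 0.42 to 1.33. Each ovary value of these enzymes lay above each uterus value, Cyp17a1 in estrus replicate 1 included.

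Of the 17 members of the gonadotropin receptor and steroid synthesis list that were tested, 15 were higher in ovary and none in uterus, with a median difference of 5.11 beside 0.15 over all tested genes. The steroidogenic regulators Nr5a1 (difference 6.81, SE 0.20) and Nr5a2 (6.11, SE 0.17) were among the 15. So was Nr0b1, the repressor of Nr5a1, at 2.93 to 6.12 FPKM in ovary and 0 to 0.23 in uterus. The 2 members that were not called were Srd5a1, a steroid 5-alpha-reductase, at 17.9 to 34.9 FPKM in ovary and 5.77 to 25.2 in uterus, and Insl3, a hormone of theca cells, at 13.3 to 40.2 and 6.99 to 17.3. Insl3 lies inside the annotated gene Jak3, so its reads may be shared, and the close copies Hsd3b1 and Hsd3b6, like the Sprr2 genes, share reads that RSEM divides by estimate. Without estrus replicate 3 of both tissues Srd5a1 and Insl3 were called too, at 1.02 and 1.13. The remaining member, Hsd3b6, was below the limit on mean FPKM and had 0.50 to 1.32 in ovary and at most 0.02 in uterus.

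**Figure D3:**
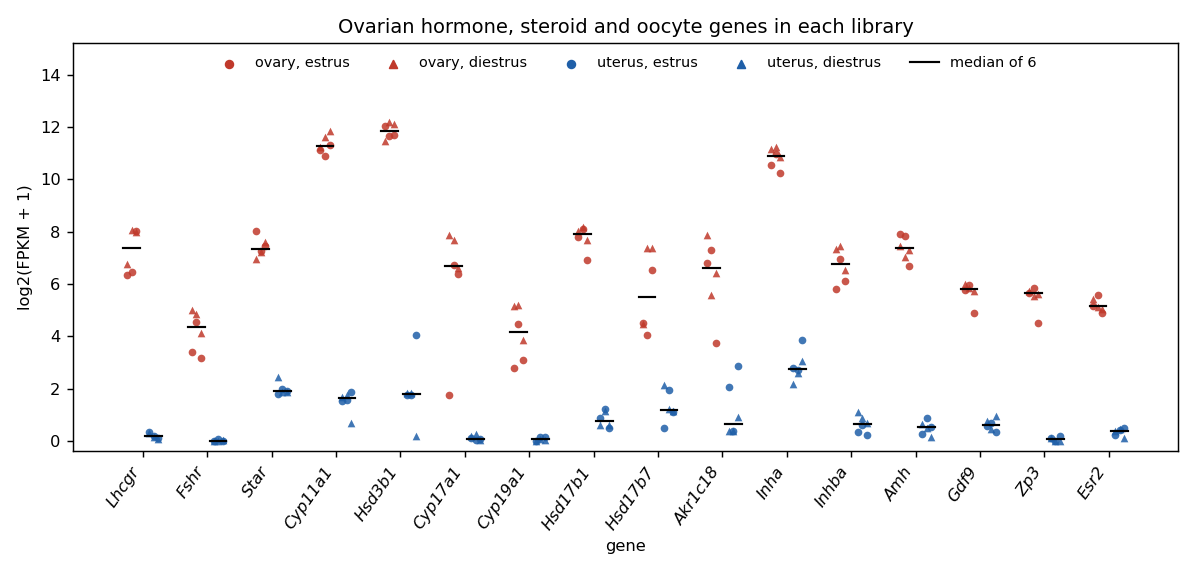
Values of 16 ovarian genes as log2(FPKM + 1) in each library, ovary in red and uterus in blue, with circles for estrus, triangles for diestrus and a black bar for the median of 6. The ovary points of every gene lie above its uterus points, and Cyp17a1 has the widest ovary range, from 2.39 FPKM in estrus replicate 1 to 230.8.

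Promoter sequence was looked at for the leading genes, because steroidogenic regulators and estrogen receptors bind DNA around the motif AGGTCA. The windows are the 250 bases before a listed transcript start, from RefSeq on GRCm38.p6, in transcript direction. The motif AGGTCA, read on both strands, was present in 14.0% of all 32851 such windows, in 11.3% of those of all tested genes, in 13.6% of those of genes called higher in ovary and in 153 of the 1174 windows of genes called higher in uterus. A window was listed for 23 of the 30 leading genes, and 10 of their 27 windows held the motif. The windows of Cyp11a1 (its second listed start, chr9:58014702-58014951, plus strand), Inha (chr1:75507359-75507608, plus strand) and Sprr2f (chr3:92364937-92365186, plus strand) are shown as examples from the leading genes whose windows hold the motif, the first 2 towards ovary and the last towards uterus. The first listed window of Cyp11a1 (chr9:57997774-57998023) held no match. That of Ltf (chr9:111019042-111019291, plus strand), lactotransferrin, is shown because it is a known estrogen-induced gene of the uterus. Capitals mark the motif, which in Sprr2f is read on the opposite strand as TGACCT.
Cyp11a1: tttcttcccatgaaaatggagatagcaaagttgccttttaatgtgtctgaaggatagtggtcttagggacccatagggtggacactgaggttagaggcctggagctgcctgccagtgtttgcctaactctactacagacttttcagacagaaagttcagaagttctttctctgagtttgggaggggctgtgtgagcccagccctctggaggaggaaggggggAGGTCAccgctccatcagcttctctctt
Inha: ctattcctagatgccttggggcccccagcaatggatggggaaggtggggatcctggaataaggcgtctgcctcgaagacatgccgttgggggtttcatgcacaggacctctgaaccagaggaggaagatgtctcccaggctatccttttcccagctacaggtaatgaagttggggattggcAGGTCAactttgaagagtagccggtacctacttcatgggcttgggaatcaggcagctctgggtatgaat
Sprr2f: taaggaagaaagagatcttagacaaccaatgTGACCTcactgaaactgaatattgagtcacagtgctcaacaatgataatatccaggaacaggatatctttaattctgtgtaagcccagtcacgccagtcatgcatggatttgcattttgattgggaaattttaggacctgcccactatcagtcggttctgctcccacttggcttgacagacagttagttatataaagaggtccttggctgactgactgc
Ltf: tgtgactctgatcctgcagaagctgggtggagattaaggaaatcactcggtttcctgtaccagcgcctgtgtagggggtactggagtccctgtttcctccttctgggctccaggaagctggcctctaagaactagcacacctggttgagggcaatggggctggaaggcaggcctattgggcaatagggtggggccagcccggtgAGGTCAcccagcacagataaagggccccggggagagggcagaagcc
A match of these letters is a description of the window, and whether a factor binds there was not measured. Its start lay 28 bases before the listed start in Cyp11a1, 69 in Inha, 219 in Sprr2f and 46 in Ltf.

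Cholesterol supply was higher in ovary as well. Of the 25 genes of cholesterol synthesis, uptake and storage, 19 were called higher in ovary and none in uterus, with a median difference of 1.66, and 1 was called higher in uterus without estrus replicate 3 of both tissues. The largest was Scarb1, the receptor that takes cholesterol from high-density lipoprotein, at 267.1 to 578.9 FPKM in ovary and 12.3 to 38.4 in uterus, a difference of 4.23 (SE 0.27, adjusted p = 2.41e-07). Soat1, which esterifies cholesterol for storage, differed by 2.55 (SE 0.27). Within the synthesis pathway Hmgcs1 had 96.0 to 180.9 FPKM in ovary and 13.5 to 30.7 in uterus, Fdps 108.2 to 199.5 and 17.3 to 45.7, and Msmo1 107.5 to 167.8 and 9.21 to 24.8. Pmvk, Npc1, Lipe, Stard4 and Srebf2 were among the members not called, and their values overlapped between the organs.

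Of the 8 tested genes that inactivate steroids, 2 were higher in ovary and none in uterus, beside 10.4% and 8.66% of all tested genes. Without estrus replicate 3 of both tissues Srd5a1 was called too, which made the ovary count 3. Akr1c18, which inactivates progesterone and is a luteal gene of rodents, had 12.3 to 234.8 FPKM in ovary, lowest in estrus replicate 3, and 0.31 to 6.34 in uterus, a difference of 5.11 (SE 0.68). Cyp1b1, which hydroxylates estrogens, had 75.4 to 97.3 FPKM in ovary and 0.05 to 4.92 in uterus, a difference of 5.54 (SE 0.40, adjusted p = 6.29e-07). Hsd17b2, which oxidises estradiol back to estrone, had a median of 1.76 FPKM in ovary and 0.47 in uterus, but a single uterus library, estrus replicate 1, had 30.4. The sulfotransferase Sult1e1 was at most 0.10 FPKM in any library of either organ.

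The peptide hormones of the follicle formed the next group. Inha (Entrez Gene 16322), the shared subunit of the inhibins that restrain follicle-stimulating hormone, had 1224 to 2408 FPKM in ovary with a median of 1929, and 3.52 to 13.4 in uterus with a median of 5.70. The difference was 7.98 (SE 0.26, adjusted p = 1.24e-09). The beta subunits were lower in level than Inha in ovary, Inhba at a median of 108.1 FPKM and Inhbb at 164.9, and they stood apart in uterus, where Inhba was at 0.18 to 1.17 FPKM and Inhbb at 2.69 to 27.8. Follistatin (Fst), which binds activins, had 56.3 to 97.7 FPKM in ovary and 0.71 to 15.5 in uterus. Amh, the anti-Mullerian hormone of growing follicles, had 102.0 to 239.6 FPKM in ovary and 0.12 to 0.84 in uterus (difference 6.87, SE 0.21, adjusted p = 8.20e-10), and its receptor Amhr2 had 49.1 to 77.1 and 1.86 to 2.90. Of the 12 genes of the inhibin, AMH and oocyte growth factor list, 10 were higher in ovary with no overlap of the libraries. The activin receptor Acvr2a (-0.14, SE 0.14) and the inhibin co-receptor Tgfbr3 (0.61, SE 0.24) were the 2 not called.

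Oocyte genes separated the organs although the oocytes are few among the cells of an ovary. Of 22 tested members, 21 were higher in ovary, each without overlap of the libraries, each with its highest mean of 15 tissues in ovary, and with a median difference of 3.85 over the list. Padi6, an enzyme of the oocyte cytoplasm, had 27.4 to 60.4 FPKM in ovary and 0 to 0.13 in uterus, a difference of 5.50 (SE 0.17, adjusted p = 8.20e-10). The zona pellucida proteins that coat the oocyte followed, Zp3 at 21.7 to 57.2 FPKM, Zp2 at 23.1 to 44.9 and Zp1 at 9.38 to 19.7, with at most 0.14 FPKM in any uterus library. The oocyte growth factors Gdf9 (28.5 to 62.5 FPKM in ovary) and Bmp15 (8.13 to 19.9) were at most 0.92 and 0.20 in uterus. The lowest ovary value of Zp3, Zp2, Zp1, Gdf9, Bmp15 and Padi6 came from estrus replicate 3, the library that held oviduct RNA, whose oocyte genes summed to 287.4 FPKM against 488.2 to 603.1 in the other ovary libraries. Kit, the receptor of oocytes that mast cells and other cells also carry, was the member not called, at 7.30 to 15.1 FPKM in ovary and 2.46 to 12.4 in uterus. Figla and Sohlh1, transcription factors of early oocytes, were below the limit on mean FPKM, with ovary values of 0.60 to 1.96 and 0.23 to 2.01 and uterus values of at most 0.07.

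Oocyte factors such as Figla bind E-boxes, with the letters CANNTG, and the window before the start of Zp3 (chr5:135979855-135980104, plus strand) is shown with its E-boxes in capitals. The letters CANNTG occurred in 66.2% of all windows, 58.8% of those of tested genes, 62.4% of those of genes called higher in ovary and 66.8% of those of genes called higher in uterus.
Zp3: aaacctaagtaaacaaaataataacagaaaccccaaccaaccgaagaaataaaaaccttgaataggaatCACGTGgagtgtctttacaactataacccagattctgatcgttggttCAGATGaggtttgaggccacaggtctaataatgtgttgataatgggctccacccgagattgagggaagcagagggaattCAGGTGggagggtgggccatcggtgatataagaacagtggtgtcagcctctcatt
The 3 matches began 181, 134 and 55 bases before the listed start.

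All 14 granulosa markers tested were higher in ovary, with a median difference of 4.60 and with the highest mean of 15 tissues in ovary for each. Apart from Serpine2, each of these markers also stands in another list described here, so this count is not a separate result. Serpine2, a protease inhibitor, had 229.2 to 419.4 FPKM in ovary and 8.88 to 35.1 in uterus. The gap junction protein Gja1, which couples granulosa cells, had 405.9 to 709.9 FPKM in ovary with a median of 624.1 and 15.5 to 43.1 in uterus with a median of 24.02, a difference of 4.49 (SE 0.23, adjusted p = 3.43e-08). Of 10 luteal markers, 9 were higher in ovary, with a median difference of 5.10. The secreted Wnt inhibitor Sfrp4 had 191.7 to 926.0 FPKM in ovary and 5.67 to 30.8 in uterus, the prolactin receptor Prlr 40.4 to 77.8 and 0.42 to 0.91, and the prostaglandin F receptor Ptgfr 20.1 to 49.4 and 0.50 to 1.88. Parm1 was not called. Of 6 theca and interstitial markers 5 were called, with a median difference of 6.57. Insl3 was the other one, and it was called higher in ovary without estrus replicate 3 of both tissues. Star, Cyp11a1, Hsd3b1 and Lhcgr stand in the theca, luteal and steroid synthesis lists alike, so these counts are not separate results. Cyp17a1 and Insl3 were the theca members outside the luteal list.

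Transcription factors that build a gonad were mostly called towards ovary. Of 11 gonad factors 8 were higher in ovary, Nr5a1 and Nr0b1 among them. Gata4, which is needed for gonad formation, had 60.5 to 91.6 FPKM in ovary and 0.05 to 1.41 in uterus, a difference of 5.96 (SE 0.21, adjusted p = 1.58e-09). Foxl2, which maintains granulosa identity, had 89.1 to 117.8 FPKM in ovary and 2.09 to 21.1 in uterus (difference 3.43, SE 0.34). Gata6 (2.67), Runx1 (1.78), Lhx9 (1.83) and Tcf21 (1.59) were called as well, the libraries of Runx1 overlapping. Wt1, which both organs use, had 30.1 to 49.8 FPKM in ovary and 24.8 to 53.2 in uterus and was not called. Emx2, needed for the whole urogenital tract, was higher in uterus, with 39.9 to 77.1 FPKM against 11.8 to 25.9.

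Of 17 Hox and Mullerian duct factors tested, 11 were higher in uterus and 1 in ovary, with a median difference of -2.43, and Dach1 brought the uterus count to 12 without estrus replicate 3 of both tissues, at -1.07. Msx1, a homeobox factor of the uterine epithelium, ranged from 40.4 to 566.3 FPKM in uterus with a median of 263.1, and from 1.45 to 9.45 in ovary with a median of 1.6. The difference was -5.78 (SE 0.64, adjusted p = 2.33e-05). Hoxa11 had 8.06 to 144.7 FPKM in uterus and at most 0.32 in ovary, and Hoxa10 had 7.55 to 170.1 and at most 2.28. Both specify the uterine segment of the duct, and the lowest uterus value of both was that of estrus replicate 3. The duct factors Pax8 (34.6 to 95.8 FPKM in uterus, 0.15 to 16.5 in ovary) and Pax2 (22.0 to 63.6, 0.24 to 6.73) did not overlap between the organs, and their highest ovary value was that of estrus replicate 3. In the Hoxd cluster, Hoxd11 at -2.43 (SE 0.40) and Hoxd10 at -1.33 (SE 0.43) were called higher in uterus, while Hoxd9 at 0.37 (SE 0.36) and Hoxd8 at 0.81 (SE 0.18) were not called. Tbx3, a T-box factor, was the member higher in ovary, at 22.2 to 37.9 FPKM against 3.72 to 18.8. Nr2f2 (57.9 to 82.3 FPKM in ovary, 39.9 to 93.0 in uterus) was not called, and its libraries overlapped.

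The genes furthest towards uterus were led by an epithelial gene. Sprr2f (Entrez Gene 20760), a small proline-rich protein that estrogen induces in uterine epithelium, had 77.8 to 8454 FPKM in uterus with a median of 1654, and 0.22 to 34.1 in ovary with a median of 2.79. The difference was -8.32 (SE 0.89, adjusted p = 1.71e-05). Wfdc2 (Entrez Gene 67701), a secreted protease inhibitor, had 321.7 to 1430 FPKM in uterus and 1.11 to 82.5 in ovary, a difference of -7.41 (SE 0.80). Pcp4, a calmodulin-binding peptide, had 105.5 to 637.7 and 0.10 to 12.7, and the homeobox factor Dlx5 had 64.1 to 151.1 and 0.14 to 5.07. The leading genes were chosen to have no overlap between the organs. The highest ovary value of Sprr2f, Wfdc2 and Dlx5 was that of estrus replicate 3. Without estrus replicate 3 of both tissues the difference of Wfdc2 was -8.50 and that of Dlx5 was -6.55.

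The remaining genes of the 15 that led towards uterus were the tight junction claudins Cldn7 (-6.06) and Cldn3 (-5.97), the ion transport regulators Fxyd3 (-6.95) and Fxyd4 (-6.60), the zinc transporter Slc39a4 (-6.03), the lipoxygenase Alox15 (-5.79), the carbonyl reductase Cbr2 (-6.11), and Pdzk1ip1 (-6.60), Plekhs1 (-6.25), Fads2b (-6.13) and Tmem213 (-6.05). Their adjusted p ranged from 1.77e-06 for Pdzk1ip1 to 1.29e-04 for Fxyd4. For 11 of the 15, uterus had the highest mean of the 15 tissues. Fxyd3 was higher in stomach, Pdzk1ip1 and Tmem213 in kidney and Cldn7 in duodenum.

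All 18 genes of simple epithelium were higher in uterus, with a median difference of -4.80, and the libraries of 15 of them did not overlap. The keratins Krt8 (160.1 to 419.8 FPKM in uterus, 14.3 to 79.2 in ovary), Krt18 (179.9 to 382.7, 6.24 to 108.7) and Krt19 (121.2 to 922.8, 7.83 to 128.7) form the filaments of such cells. The adhesion proteins Epcam (difference -4.66, SE 0.46) and Cdh1 (-4.99, SE 0.54) and the epithelial factors Elf3 (-5.50, SE 0.49) and Ehf (-3.45, SE 0.49) were called too. Foxa2, the factor of uterine glands, had 1.82 to 17.7 FPKM in uterus and at most 3.70 in ovary, a difference of -2.65 (SE 0.48). For each of these genes the highest ovary value was that of estrus replicate 3. The part of oviduct RNA in that value was not tested, and without estrus replicate 3 of both tissues all 18 were called again, with a median difference of -5.33.

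Among genes that estrogen induces in uterine epithelium, 5 of 9 were higher in uterus and none in ovary. Their values ranged widely among the uterus libraries. Ltf (lactotransferrin) had 1117, 291.9 and 1043 FPKM in the 3 estrus libraries of uterus and 138.5, 307.8 and 7.96 in the 3 diestrus libraries, and 1.06 to 172.3 in ovary. The difference was -5.38 (SE 1.08, adjusted p = 0.00181), and the groups overlapped because ovary estrus replicate 3 had 172.3 FPKM. Lcn2, an iron-sequestering lipocalin, had 3989, 176.6 and 1245 FPKM in estrus uterus and 194.7, 56.2 and 10.2 in diestrus uterus. Complement C3 had 2719 FPKM in uterus estrus replicate 1 and 44.0 to 298.2 in the other uterus libraries. Wfdc18, Clca3a2, Slpi and Lyz2 were not called. Muc1, the mucin of the luminal surface, was among the 5 called, at 44.1 to 389.5 FPKM in uterus and 0.53 to 19.1 in ovary.

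**Figure D4:**
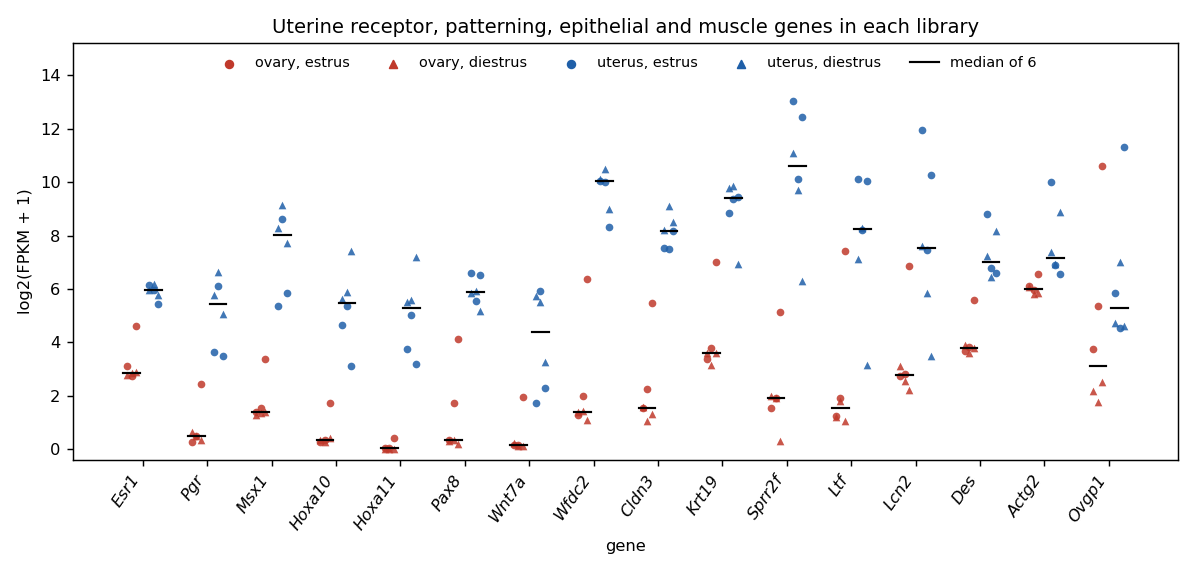
Values of 16 genes of uterine receptors, patterning factors, epithelium and muscle as log2(FPKM + 1) in each library, ovary in red and uterus in blue, with circles for estrus, triangles for diestrus and a black bar for the median of 6. The single ovary circle far above the other ovary points in most columns is estrus replicate 3, which reached 82.5 FPKM of Wfdc2 and 1563 FPKM of Ovgp1.

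Genes of smooth muscle, the cell type of the uterine wall, were mostly called towards uterus. Of 16 smooth muscle genes 12 were higher in uterus and none in ovary, with a median difference of -1.34. Desmin (Des) had 85.0 to 441.7 FPKM in uterus and 11.03 to 46.8 in ovary, a difference of -3.28 (SE 0.45, adjusted p = 1.14e-04), and calponin (Cnn1) had 85.0 to 454.4 and 22.4 to 63.5. Actin Actg2 had 94.2 to 1031 FPKM in uterus and 54.8 to 92.0 in ovary, and the highest were estrus replicate 1 at 1031 and diestrus replicate 3 at 476.5. Transgelin (Tagln) had 438.5 to 1889 and 193.1 to 252.2. The more widely used actin Acta2 had 245.6 to 1293 FPKM in uterus and 252.7 to 386.2 in ovary and was not called (-0.97, SE 0.36, adjusted p = 0.0515), but it was called at -1.30 without estrus replicate 3 of both tissues, which made the uterus count 13. The myogenic coactivator Myocd was at 3.27 to 5.61 FPKM in ovary and 1.32 to 3.53 in uterus, and Ldb3 was not called either.

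Receptors and channels that act on uterine contraction were called in both directions. Of 13 tested, 5 were higher in ovary and 1 in uterus, with a median difference of 0.78. Gja1, the junction protein that also couples muscle cells, was the largest. Oxtr, the oxytocin receptor, had 12.2 to 39.7 FPKM in ovary and 0.67 to 8.70 in uterus, a difference of 2.42 (SE 0.42, adjusted p = 6.93e-04). The calcium-activated potassium channel Kcnma1 (1.93, SE 0.20) and the endothelin receptor Ednra (1.33, SE 0.22) were higher in ovary, and the calcium release channel Itpr1 lay at the limit with 1.00 (SE 0.13) and was not called without estrus replicate 3 of both tissues. The adrenergic receptor Adra2a was the member higher in uterus (-1.03, SE 0.17). The calcium channel Cacna1c had 4.28 to 10.7 FPKM in ovary and 2.63 to 17.2 in uterus. Scaling did not change the direction of the called members, and the fold limit of 1 was missed by Itpr1 at 0.83 with median-of-ratios scaling.

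The estrogen receptors were called in opposite directions. Esr1, the alpha estrogen receptor, had 41.9 to 70.8 FPKM in uterus with a median of 60.9 and 5.70 to 23.1 in ovary with a median of 6.28, a difference of -2.75 (SE 0.29, adjusted p = 1.45e-05). Esr2, the beta receptor of granulosa cells, had 28.6 to 46.3 FPKM in ovary with a median of 34.6 and 0.08 to 0.42 in uterus, a difference of 4.85 (SE 0.14, adjusted p = 7.73e-10). The libraries of the organs did not overlap for either receptor, and the directions were opposite. Pgr, the progesterone receptor, had 10.2 to 98.7 FPKM in uterus and 0.19 to 4.35 in ovary, a difference of -4.36 (SE 0.57, adjusted p = 8.31e-05). Within uterus, Pgr was at 11.6, 68.8 and 10.2 FPKM in the estrus libraries and at 53.5, 98.7 and 32.7 in the diestrus libraries. Gper1, a membrane estrogen receptor, was higher in uterus (-1.24, SE 0.43), and Nr3c1, the glucocorticoid receptor, was at 6.92 to 11.2 FPKM in ovary and 6.79 to 10.8 in uterus. Of the partners, Fkbp5, a chaperone of receptor complexes, had 102.2 to 159.4 FPKM in ovary and 1.04 to 18.9 in uterus, and Greb1, an estrogen receptor cofactor, had 75.9 to 134.2 and 3.56 to 29.97. In all, 3 of the 15 tested were higher in each organ and the median difference was -0.02.

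Wnt ligands and R-spondins, which pattern both organs, were called in both directions. Of 14 tested, 4 were higher in ovary and 5 in uterus. Ovary held Wnt4, which is required for female gonad development, at 39.9 to 83.5 FPKM against 2.24 to 35.2, a difference of 1.97 (SE 0.41, adjusted p = 0.00246), and Wnt6 at 9.95 to 36.7 against 0.18 to 1.36. Rspo2 at 1.94 to 2.91 FPKM and Wnt10a at 0.52 to 7.68 were the others. Uterus held Wnt7a, which keeps the duct female in pattern, at 2.32 to 59.1 FPKM against 0.08 to 2.84, a difference of -3.62 (SE 0.75, adjusted p = 0.00223). Its uterus values were 2.32, 59.1 and 3.86 in estrus and 52.2, 44.8 and 8.49 in diestrus. Rspo3 had 16.8 to 49.3 FPKM in uterus and 0.88 to 5.14 in ovary (difference -3.19, SE 0.27), and Wnt11, Wnt5a and Rspo1 were called at -2.46, -1.04 and -1.04. Wnt16 was called in addition without estrus replicate 3 of both tissues, at -1.66.

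Prostaglandin genes were called in both directions. The enzymes that release and oxidise arachidonic acid were higher in uterus, namely the phospholipase Pla2g4a (17.96 to 208.3 FPKM against 5.95 to 13.6, difference -2.29, SE 0.44), and the cyclooxygenases Ptgs1 (7.20 to 71.0 against 2.54 to 7.46) and Ptgs2 (0.61 to 14.1 against 0.03 to 0.83). The synthase Ptges, which makes prostaglandin E, was higher in ovary with 31.4 to 49.4 FPKM against 1.65 to 16.4, a difference of 2.99 (SE 0.38, adjusted p = 6.83e-05). Of the receptors, Ptger4 (-2.75, SE 0.35) and Ptger3 (-2.28, SE 0.47) for prostaglandin E were higher in uterus and Ptgfr for prostaglandin F was higher in ovary (3.95, SE 0.17). Hpgds was called higher in uterus and was no longer called without estrus replicate 3 of both tissues, and Ptgds was higher in ovary (1.70, SE 0.41). In all, 3 of 18 were higher in ovary and 6 in uterus, with a median difference of -0.12.

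Several genes of ovulation and of the cumulus matrix had low values in ovary. Has2, which makes the hyaluronan of the expanded cumulus, had at most 0.18 FPKM in ovary, Ereg at most 0.73 and Areg at most 1.93. Of 13 genes 8 were tested, and Vcan (24.7 to 38.9 FPKM in ovary, 0.87 to 15.3 in uterus, difference 2.55, SE 0.33) and Itih2 (2.22 to 8.38, 0.10 to 0.90, 2.33, SE 0.28) were higher in ovary. Ptgs2 was the member higher in uterus.

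**Figure D5:**
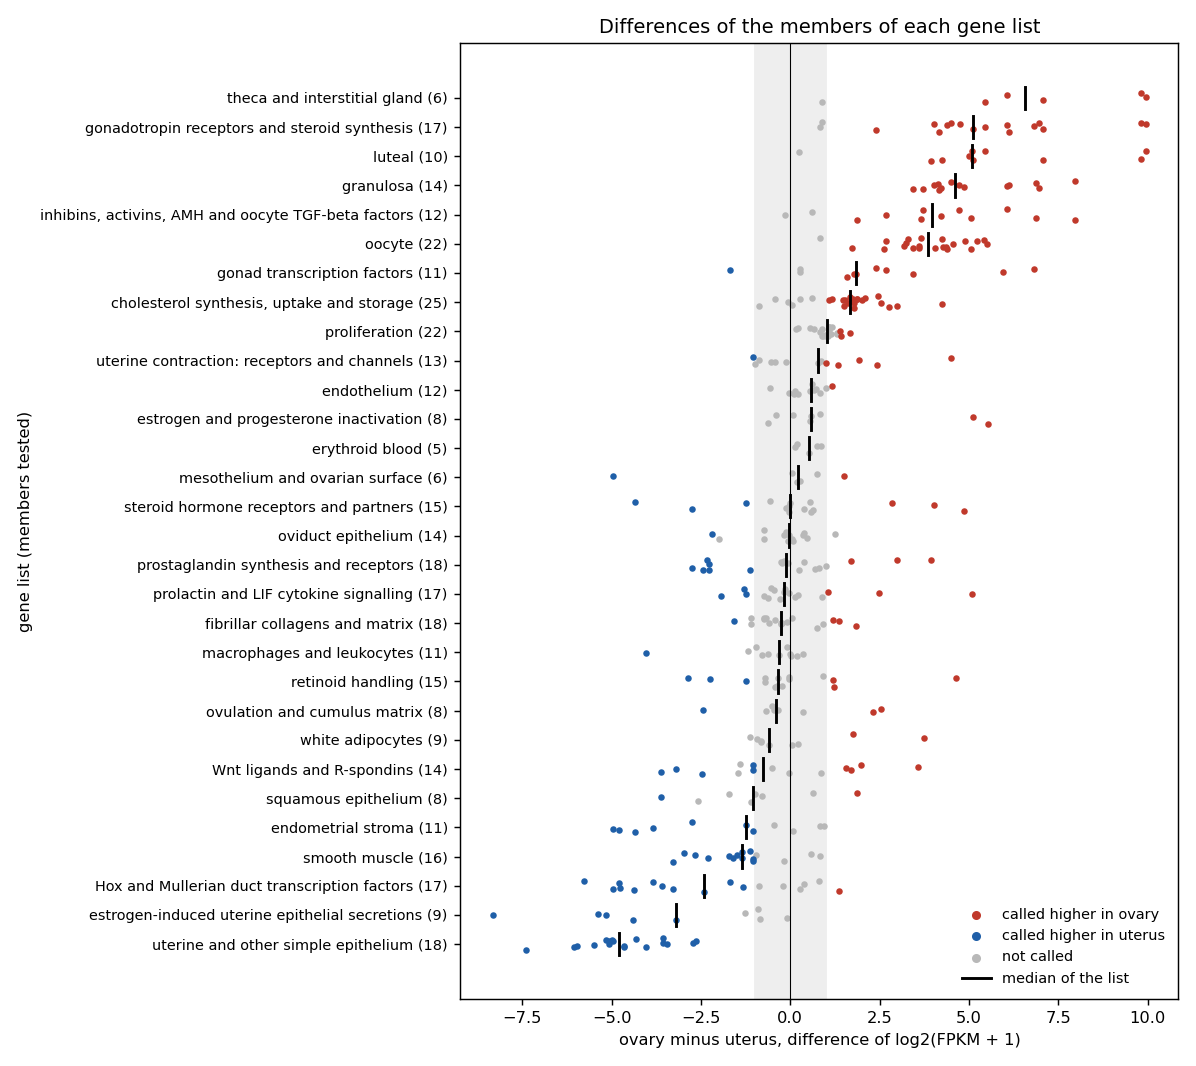
Difference of log2(FPKM + 1), ovary minus uterus, of each tested member of the 30 gene lists, with members called higher in ovary in red, higher in uterus in blue and not called in grey, and a black bar at the median of the list. The grey band spans differences under 1, and the lists run from theca and interstitial gland at a median of 6.57 to simple epithelium at -4.80. Some genes stand in several lists, and the theca list shares most of its members with the luteal list.

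Like most of all tested genes, most proliferation genes were not called. Their sum was 388.5 to 690.8 FPKM across ovary libraries and 98.0 to 1147 across uterus libraries, highest in uterus estrus replicate 2. The 22 members had a median difference of 1.03, beside 0.15 over all tested genes. Of them, 3 were called higher in ovary and none in uterus, beside 10.4% and 8.66% of all tested genes. Mki67, the common marker of cycling cells, had 11.1 to 23.2 FPKM in ovary. In uterus it was at 3.08, 31.0 and 2.81 FPKM in the estrus libraries and at 15.9, 4.49 and 8.85 in the diestrus libraries. The 3 called were Ccnb1 (1.66, SE 0.51), Ccnb2 (1.41, SE 0.51) and Bub1b (1.39, SE 0.38), all with overlapping libraries, and Ccnb2 was not called without estrus replicate 3 of both tissues. Whether the spread of uterus differs from that of ovary was not tested.

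Of 11 endometrial stroma genes 7 were higher in uterus and none in ovary, with a median difference of -1.25. Among the 7, Hand2, Hoxa10, Hoxa11, Pgr, Esr1 and Wnt5a were also counted in lists above, so this count is not a separate result. Hand2, a progesterone-dependent stromal factor, was at 6.78 to 68.4 FPKM in uterus and at most 2.02 in ovary. Vim (268.0 to 482.8 FPKM in ovary, 123.3 to 485.7 in uterus) and Pdgfra (15.8 to 32.1, 3.10 to 35.0), which mark mesenchymal cells of many organs, were not called. Among 18 collagens and matrix proteins Bgn (1.84), Mgp (1.36) and Ogn (1.2) were higher in ovary and Col14a1 (-1.57) was higher in uterus. Without estrus replicate 3 of both tissues the uterus count was 5, with Col1a1, Col6a2, Col6a3 and Eln added. Col1a1, the main chain of type I collagen, had 56.6 to 581.7 FPKM in uterus and 57.7 to 181.5 in ovary.

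Whether the difference between the organs depended on the phase was tested as the interaction of tissue and phase. Called genes made up 0.0% of those tested, and the smallest adjusted p in limma was 0.761. Of the 14035 genes tested, 529 had an unadjusted p under 0.05 in limma, a limit that a share of 0.05 would pass with no true interaction. The difference had the same sign in both phases for all 1458 genes higher in ovary and for 1214 of the 1215 higher in uterus. Genes were called on the difference pooled over both phases, so this agreement largely follows from their choice and is no test of phase. Hoxa10 differed by -3.58 in estrus and -5.98 in diestrus, with an unadjusted p of 0.0186 in limma, and Msx1 by -4.52 and -7.05 (unadjusted p of 0.0428 in limma), and neither passed the adjustment. Without uterus estrus replicate 2, the library with low estrogen-induced genes, 90 genes were called in the interaction, and without uterus diestrus replicate 1, 4 were. A fit of all 90 libraries with a shared estimate of the spread called 313.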

How the data were processed

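RNA was extracted from frozen tissue, made into TruSeq libraries and sequenced on BGISEQ-500. Reads were cleaned with SOAPnuke by the authors, and the submitters' processing notes list Bowtie2 2.2.5, RSEM 1.2.8 and the build GRCm38.p5. The deposited values were taken as FPKM from their range and from RSEM, since no source used here names the unit, and they came without counts. Depth was approximated from the FPKM steps of 933 short genes of 300 to 1100 bases as 16000000 to 17400000 reads in 11 libraries, and it was ambiguous in uterus estrus replicate 3. Only 43.9% to 54.8% of values were whole reads within 0.1, so no counts were recovered.

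Libraries were grouped by the tissue and phase labels. Genes with a mean FPKM of at least 1 were tested on log2(FPKM + 1) using limma 3.58.1 (R 4.3.3), phase as a covariate and a variance trend on intensity. The method was run on simulated data with independent normal noise. That simulation held no shared mice and no library with oviduct RNA, so it does not test those conditions. The limits for a call were 1 on the difference and 0.05 on the adjusted p. Tables used Python 3.11.15 with pandas 2.3.3 and figures matplotlib 3.10.9. Symbols were looked up by Entrez Gene identifier in RefSeq. Named genes are the 15 largest differences in each direction that were called with and without estrus replicate 3 of both tissues and had no overlap, the most abundant members of 30 gene and marker lists, members called against their list, and members whose role the text needs. The organs, members and lists were chosen with earlier results of these data known. Alternatives covered the pseudocount, the filter, scaling, phase term, replicate block, single phases, left-out libraries, limits, trend and 1 fit of all libraries. Some list members are counted but not reported by name here.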

Additional observations from a re-analysis of the deposited data

Results flagged for a closer look

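The 30 leading genes form 60 groups of 6 libraries, 1 per gene and organ. In 20 of these groups, 1 library's gap to the nearest other value, taken on log2(FPKM + 1), exceeded Dixon's 95% critical share of the range. The groups come from the same libraries and are not independent, and Dixon's limit assumes a normal spread that was not checked. The count is therefore a description, with no chance rate beside it. In 14 of the 20 groups the library was ovary estrus replicate 3, the one with oviduct and epithelial RNA, and the genes were those leading towards uterus. Its values in FPKM were 34.1 for Sprr2f, 82.5 for Wfdc2, 55.6 for Fxyd3, 61.2 for Fxyd4, 10.3 for Pdzk1ip1, 27.1 for Plekhs1, 27.3 for Fads2b, 48.9 for Cbr2, 5.07 for Dlx5, 21.0 for Cldn7, 3.40 for Tmem213, 21.0 for Slc39a4, 43.5 for Cldn3 and 40.6 for Alox15. The next ovary value was at most 6.68 FPKM for each of them. The part of oviduct RNA in these values was not tested.

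In 4 groups the library was uterus estrus replicate 3, with 5.65 FPKM of Mgarp, 3.34 of Acsbg1, 1.11 of Nr5a1 and 2.87 of Prss35, genes that lead towards ovary. The other 2 were Cyp11a1 at 0.60 FPKM in uterus diestrus replicate 3, the lowest of its group, and Cst8 at 0.09 FPKM in uterus estrus replicate 1, where the other 5 were at 0.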

How the results depend on the processing

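The counts of 1458 genes higher in ovary and 1215 higher in uterus moved by less than 1.5 times under the pseudocount of 0.1 (1773 and 1375), no filter (1504 and 1211), a mean FPKM of at least 5 (1035 and 870), median-of-ratios scaling (1180 and 1410), quantile normalization (1257 and 1359), diestrus libraries only (1498 and 1224) and an adjusted p of at most 0.01 (1358 and 1009). With estrus libraries only, 1026 genes were higher in ovary and 570 in uterus. At a limit of 2 on the difference the counts were 505 and 516 by construction. Leaving out each library in turn gave 1387 to 1539 genes higher in ovary, 1105 to 1253 higher in uterus and 0 to 90 in the interaction, which was 4 without uterus diestrus replicate 1, 90 without uterus estrus replicate 2 and 313 in 1 fit of all 90 libraries. No named gene or list member changed sign while called.

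No source used here ties the replicate numbers to mice, so they were not taken to pair the libraries. The correlation of same-numbered deviations was positive in all 6 pairs but not above 0.1 in each, at 0.0756, 0.292 and 0.253 in estrus and 0.0664, 0.0979 and 0.118 in diestrus, and 4 of 6 ovary and 5 of 6 uterus libraries correlated best with their own number, a hint from the data and not from the design. With a replicate block 1472 and 1224 genes were called, and 0 in the interaction. FPKM without counts give no counting error, and values near 0 in uterus are limited by the depth.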

Other observations

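Retinoid genes, which handle vitamin A and its active acid, were called in both directions, 3 of 15 higher in ovary and 3 in uterus, with a median difference of -0.34. Aldh1a1, which oxidises retinal to retinoic acid, had 609.2 to 896.6 FPKM in ovary with a median of 778.4 and 6.15 to 95.8 in uterus with a median of 41.8, a difference of 4.63 (SE 0.63, limma adjusted p = 1.14e-04). Rdh10, which acts on the step before it, ran the other way without overlap, with 49.6 to 74.5 FPKM in uterus and 5.97 to 12.5 in ovary, a difference of -2.87 (SE 0.17, limma adjusted p = 9.57e-08). The enzymes that degrade retinoic acid also differed in direction, Cyp26a1 at -2.25 (SE 0.53) and Cyp26b1 at 1.22 (SE 0.24). The carrier Crabp1 was called higher in uterus and was no longer called without estrus replicate 3 of both tissues.

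In prolactin and LIF signalling, 3 of 17 genes were higher in ovary and 3 in uterus, with a median difference of -0.16. Beside the prolactin receptor, the feedback inhibitor Socs2 was higher in ovary, at 124.1 to 244.7 FPKM against 22.9 to 74.0 (difference 2.49, SE 0.28), and Igf1r, the receptor of insulin-like growth factor, by 1.05 (SE 0.18). Lif, the cytokine needed for implantation, was low in both organs but did not overlap, at 2.09 to 7.40 FPKM in uterus and 0.23 to 0.48 in ovary (difference -1.95, SE 0.25). Its signalling subunit Il6st (-1.31, SE 0.41) and the binding protein Igfbp3 (-1.23, SE 0.33) were higher in uterus.

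Markers of cell types that both organs or their surroundings hold were counted beside the 10.4% of all tested genes called higher in ovary and the 8.66% called higher in uterus. Of 12 endothelial genes, 1 was called, Cdh5, higher in ovary by 1.17 (SE 0.35), and it was not called without estrus replicate 3 of both tissues, where Cldn5 was called instead at 1.01. Of 11 leukocyte genes, 1 was called, Cd14, a receptor for bacterial lipopolysaccharide, with 30.1 to 97.8 FPKM in uterus and 1.37 to 9.07 in ovary. Of 9 adipocyte genes, Plin4 (16.2 to 117.1 FPKM in ovary, 1.64 to 4.57 in uterus) and Plin1 (1.76, SE 0.28), which coat lipid droplets, were higher in ovary, while Adipoq, the fat cell hormone, had 0.36 to 20.6 FPKM in ovary and 1.45 to 22.4 in uterus. Of 5 erythroid genes none was called. Of 6 mesothelial genes, Upk1b was called higher in ovary (1.49, SE 0.44), a call not made without estrus replicate 3 of both tissues, and Krt19 higher in uterus. Of 8 squamous genes, Krt13 was called higher in uterus, where estrus replicate 3 had 1431 FPKM, and Sbsn higher in ovary (1.87, SE 0.48). Of 14 oviduct genes, Tppp3 was called higher in uterus (-2.20, SE 0.45), and Ovgp1, the oviduct glycoprotein, had 1563 FPKM in ovary estrus replicate 3 and 2554 in uterus estrus replicate 3. Without these libraries, Ovgp1 was called higher in uterus at -2.24 as well and Fam183b higher in ovary at 1.76.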
